A study of Mus musculus with 9 samples.

Results

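Cholesterol is built from acetyl-CoA by a chain of enzymes, and 8 of these enzymes are described here in sorted cells of the adult mouse brain. They are Hmgcs1, Fdps, Fdft1, Sqle, Lss, Cyp51, Msmo1 and Dhcr7, taken by name with no threshold on their values, and all 8 are among the 14477 genes measured. RNA was sequenced from cells of the dentate gyrus of the hippocampus (DG, 5 libraries) and of the subventricular zone (SVZ, 4 libraries) beside the lateral ventricle, which are both sites where new neurons are made in adulthood. All mice carried the same transgene (strain B6.Cg-Tg(Nes-EGFP)1Yamm), in which regulatory sequence of the neural precursor gene Nestin drives the fluorescent reporter EGFP, and cells with reporter signal were collected by flow sorting. All mice lived in standard housing without treatment, and the region was the only labelled difference. The labels give adult cells but no age, and they do not say whether a library came from a single animal or a pool, so the p-values below take in no more than the spread among the libraries at hand.

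In this pathway Hmgcs1 belongs to the part that leads to mevalonate, Fdps makes farnesyl diphosphate, Fdft1 joins farnesyl units into squalene, and Sqle and Lss turn squalene into the first sterol, lanosterol. Cyp51, Msmo1 and Dhcr7 belong to the later stage that trims lanosterol to cholesterol. When sterol in the endoplasmic reticulum is low, SREBP transcription factors are carried to the Golgi by Scap, are cleaved there and enter the nucleus, where they raise the genes of the whole chain, while the Insig proteins hold them back. Plasma cholesterol hardly enters the brain, so brain cells make their own, and astrocytes pass it to other cells on lipoproteins.

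Promoters of genes in this chain are known for sterol regulatory elements, bound by SREBP, beside CCAAT boxes, bound by the factor NF-Y. RefSeq promoter windows (build GRCm38.p6) were matched for 5 of the 8 genes, Hmgcs1, Lss, Cyp51, Msmo1 and Dhcr7, and Fdps, Fdft1 and Sqle are named only. The 250 bases before the start are shown for 3 genes that stand for the 3 outcomes below: Hmgcs1 did not pass the test, Lss was lower in DG and Msmo1 was higher in DG. Capitals mark TCACNCCAC, a sterol regulatory element in which N is any base, or CCAAT, each read on either strand, and no base belongs to both motifs. The windows are chr13:119690101-119690350 on the plus strand, chr10:76531355-76531604 on the plus strand and chr8:64733579-64733828 on the minus strand.
Hmgcs1: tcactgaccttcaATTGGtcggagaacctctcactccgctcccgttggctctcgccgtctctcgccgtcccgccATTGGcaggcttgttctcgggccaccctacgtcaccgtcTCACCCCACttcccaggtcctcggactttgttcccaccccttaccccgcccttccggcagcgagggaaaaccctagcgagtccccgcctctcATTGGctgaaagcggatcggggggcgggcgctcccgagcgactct
Lss: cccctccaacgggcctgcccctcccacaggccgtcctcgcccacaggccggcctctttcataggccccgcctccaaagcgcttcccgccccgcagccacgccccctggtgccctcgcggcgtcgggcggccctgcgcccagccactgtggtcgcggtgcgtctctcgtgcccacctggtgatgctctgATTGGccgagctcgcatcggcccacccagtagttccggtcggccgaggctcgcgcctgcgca
Msmo1: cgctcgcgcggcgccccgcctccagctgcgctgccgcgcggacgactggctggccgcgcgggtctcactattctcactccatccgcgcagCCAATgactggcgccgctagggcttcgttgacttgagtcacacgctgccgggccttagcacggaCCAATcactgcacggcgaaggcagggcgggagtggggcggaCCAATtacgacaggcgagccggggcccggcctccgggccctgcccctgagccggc
Hmgcs1 held the sterol regulatory element at position -137 relative to the start and 3 CCAAT boxes. Msmo1 held 3 CCAAT boxes and Lss held 1, and neither window held the 9 letters of the sterol regulatory element. Of 32851 windows of this length in the mouse table, 1.05% held TCACNCCAC and 33.8% held CCAAT. Cyp51 had 1 CCAAT box, and the 3 annotated starts of Dhcr7 had 0, 0 and 2. No window of these 2 genes held TCACNCCAC, so of the 5 matched genes only Hmgcs1 held it. A match describes the letters of a window and no binding was measured here. The RefSeq starts differ from the GENCODE gene bounds given below. Most of the Msmo1 window lies inside those bounds, which reach 64733792.

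The 8 enzymes did not move as a block. Msmo1 and Dhcr7, from the later stage, were higher in DG. Fdps, Fdft1 and Lss were lower in DG, and the call of Fdps was close to the threshold. Hmgcs1, Sqle and Cyp51 did not pass the test. Of these, Sqle acts between Fdft1 and Lss, and Cyp51 belongs to the later stage. All 8 differences were smaller than 2-fold, which held for 64.4% of all genes. Levels are log2 CPM, read counts scaled to a common library total, so a difference of 1 is 2-fold, and differences are DG minus SVZ. Means are given ± SD over 5 DG and 4 SVZ libraries, and differences with their standard error (SE) or 95% interval. The test was limma with adjustment over all 14477 genes and a threshold of 0.05. In this fit 32.9% of all genes were higher and 33.7% lower in DG, so 2 and 3 of 8 enzymes are shares near those of the whole table. The DG libraries all lay above the SVZ libraries for 2 of the 8 (29.7% of all genes) and all below them for 2 of the 8 (28.3% of all genes). The median difference of the 8 was -0.04, against -0.07 for all genes, and their median absolute difference was 0.43, against 0.69. The summed level of the 8 was 1366 to 1755 CPM in DG and 1420 to 1680 CPM in SVZ, with overlap.

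**Figure D1:**
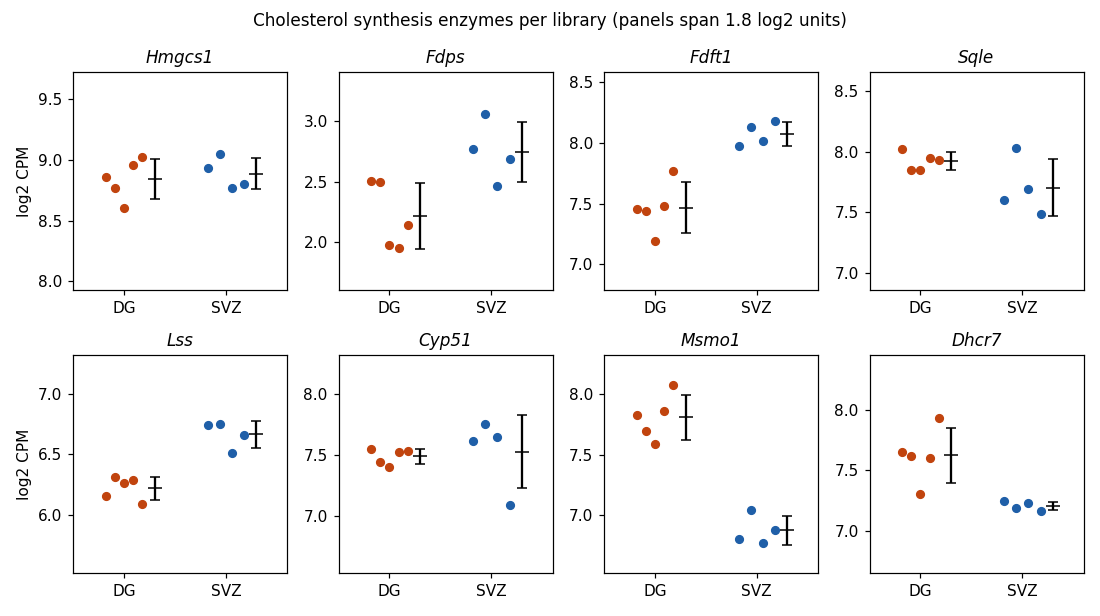
Level of each of the 8 enzymes in log2 CPM (vertical axis) in the 5 DG and 4 SVZ libraries, 1 point per library, with the mean and SD of each tissue. Msmo1 and Dhcr7 have all DG points above all SVZ points, Fdft1 and Lss have all DG points below, and the other 4 enzymes overlap.

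Depth did not limit most of these values. The DG libraries held 33627909 to 41164044 reads and the SVZ libraries 31126803 to 32528255 reads over the genes of the table, and 1 read was worth 0.0243 to 0.0321 CPM. Apart from Fdps, each enzyme had at least 2395 reads in each library. The sorted fractions differed in their marker genes. The nestin reporter list (Nes, Sox2, Egfr and Prom1) summed to 372 to 446 CPM in DG and 423 to 509 CPM in SVZ, and of its 4 genes 1 was higher and 3 were lower in DG (median difference -1.03). All 10 endothelial and all 10 pericyte and smooth muscle markers were higher in DG, with sums of 1150 to 2194 CPM in DG against 9.51 to 64.7 CPM in SVZ for endothelium, and 5616 to 11500 CPM against 73.4 to 179 CPM for pericytes. Astrocyte and radial glia markers were higher in DG for 8 of 9 (15626 to 23694 CPM against 1665 to 2964 CPM in SVZ), and oligodendrocyte precursor markers for 6 of 6 (1698 to 3514 CPM against 70.7 to 290 CPM). All 9 neuroblast markers (5348 to 8069 CPM in DG, 19861 to 23418 CPM in SVZ) and all 9 proliferation markers (1110 to 1510 CPM in DG, 4135 to 4843 CPM in SVZ) were lower in DG. No marker was at 0 in all libraries of a tissue. Mature oligodendrocyte markers, of a cell type rich in sterol synthesis, were higher in DG for 5 of 8 and lower for 1 (2976 to 5491 CPM in DG, 1478 to 2952 CPM in SVZ). The part of these markers in the differences of the enzymes was not tested. In such bulk libraries, fewer cells of a type and less RNA per cell cannot be told apart.

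Hmgcs1 (ENSMUSG00000093930, mm10 chromosome 13, 119690379 to 119708260, plus strand) makes HMG-CoA at the entry to the chain. It stood at 8.86, 8.77, 8.60, 8.96 and 9.03 log2 CPM in DG libraries 1 to 5, and at 8.93, 9.05, 8.77 and 8.80 in SVZ libraries 1 to 4. The tissues overlapped, and the difference was -0.04 (95% interval -0.27 to 0.18, limma adjusted p = 0.715). This interval excludes differences beyond 0.27 log2 in either direction. The sign depended on scaling, at 0.0101 with TMM factors. An antisense gene, Gm48342, covers 12.12% of the exon bases and 35.06% of the coding bases of Hmgcs1. Gm48342 was not among the genes measured, and the library kit does not mark the strand.

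Fdps (ENSMUSG00000059743, chromosome 3, 89093588 to 89101959, minus strand) makes farnesyl diphosphate, the branch point between sterols and other isoprenoids. It had 140 to 258 reads per library, the fewest of the 8. Its levels were 2.51, 2.50, 1.97, 1.95 and 2.15 log2 CPM in DG, and 2.77, 3.06, 2.46 and 2.68 in SVZ. The 2 highest DG libraries lay above the lowest SVZ library. Fdps averaged 2.22 ± 0.27 in DG and 2.74 ± 0.25 in SVZ (SD, n = 5 and 4), a difference of -0.53 (SE 0.20, limma adjusted p = 0.0362). The call was close to the threshold: adjusted p was 0.0503 with TMM scaling, and it lay between 0.0606 and 0.110 without DG 3, DG 4, DG 5, SVZ 1 or SVZ 2. Another annotated gene on the same strand, Gm43738, shares 26.71% of the exon bases and 85.93% of the coding bases of Fdps. Gm43738 was not among the genes measured, and the sources give no rule for shared reads.

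Fdft1 (ENSMUSG00000021273, chromosome 14, 63145150 to 63179578, minus strand) is squalene synthase, the first enzyme committed to sterols. It stood at 7.46, 7.44, 7.19, 7.48 and 7.77 log2 CPM in DG, and at 7.97, 8.13, 8.02 and 8.18 in SVZ. All DG libraries were below all SVZ libraries. The means were 7.47 ± 0.21 in DG and 8.07 ± 0.10 in SVZ, a difference of -0.61 (SE 0.11, limma adjusted p = 0.000566), or 1.52-fold higher in SVZ. Exons of Fdft1 and of Ctsb, which encodes the lysosomal protease cathepsin B, overlap on opposite strands over 18.31% of the exon bases of Fdft1 and none of its coding bases. Ctsb moved the other way, with 11.14 ± 0.30 in DG, against 9.39 ± 0.23 in SVZ (difference 1.75, SE 0.16, adjusted p = 3.21e-06). The predicted gene Gm6781, which was not among the genes measured, matches Fdft1 at 97.4% identity over 1249 bases. How reads of these genes were assigned is not given in the sources used here.

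Sqle (ENSMUSG00000022351, chromosome 15, 59315077 to 59331192, plus strand) adds oxygen to squalene and is a second control point of the chain. It had 8.02, 7.85, 7.85, 7.95 and 7.93 log2 CPM in DG, and 7.60, 8.03, 7.69 and 7.49 in SVZ. Library SVZ 2 was above all DG libraries and the other 3 SVZ libraries were below all of them. The difference was 0.22 (95% interval -0.02 to 0.46, limma adjusted p = 0.0947). It passed the threshold without SVZ 2 (0.33, adjusted p = 0.00900) and with TMM scaling (adjusted p = 0.0431).

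Lss (ENSMUSG00000033105, chromosome 10, 76531588 to 76557138, plus strand) folds the oxidised squalene into the rings of lanosterol. Its levels were 6.15, 6.31, 6.26, 6.29 and 6.09 log2 CPM in DG, and 6.74, 6.75, 6.51 and 6.66 in SVZ. The tissues did not overlap, and DG was lower. The means were 6.22 ± 0.10 in DG and 6.66 ± 0.11 in SVZ, a difference of -0.44 (SE 0.09, limma adjusted p = 0.00117), or 1.36-fold higher in SVZ. Squalene synthase and lanosterol synthase thus shared a direction, and Sqle, the enzyme between them, had a difference of 0.22 that did not pass.

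Cyp51 (ENSMUSG00000001467, chromosome 5, 4081145 to 4104746, minus strand) is the cytochrome P450 that removes the first methyl group from lanosterol. It stood at 7.55, 7.45, 7.40, 7.53 and 7.53 log2 CPM in DG, and at 7.61, 7.76, 7.65 and 7.09 in SVZ. Library SVZ 4 was below all DG libraries and the other SVZ libraries were above all of them. The difference was -0.04 (95% interval -0.32 to 0.24, limma adjusted p = 0.805), and its sign turned with TMM scaling (0.0171). Without SVZ 4 it was -0.184 (adjusted p = 0.0668). Akap9 overlaps Cyp51 on the opposite strand over 3.76% of its exon bases and none of its coding bases, and it was lower in DG (-1.22, SE 0.23, adjusted p = 0.000624).

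Msmo1 (ENSMUSG00000031604, chromosome 8, 64718139 to 64733792, minus strand) is the sterol oxidase that starts removal of the next methyl groups. It differed most among the 8. Its levels were 7.83, 7.69, 7.59, 7.86 and 8.07 log2 CPM in DG, and 6.81, 7.04, 6.77 and 6.88 in SVZ. The lowest DG library lay above the highest SVZ library by more than the range within either tissue. Msmo1 averaged 7.81 ± 0.18 in DG and 6.87 ± 0.12 in SVZ, a difference of 0.93 (SE 0.11, limma adjusted p = 1.97e-05), or 1.91-fold higher in DG.

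Dhcr7 (ENSMUSG00000058454, chromosome 7, 143823145 to 143848410, plus strand) reduces 7-dehydrocholesterol to cholesterol. It had 7.66, 7.62, 7.31, 7.60 and 7.94 log2 CPM in DG, and 7.25, 7.19, 7.23 and 7.17 in SVZ. All DG libraries were higher, with DG 3 nearest to SVZ. The means were 7.62 ± 0.22 in DG and 7.21 ± 0.04 in SVZ, a difference of 0.42 (SE 0.11, limma adjusted p = 0.00674), or 1.33-fold higher in DG. The calls of Fdft1, Lss, Msmo1 and Dhcr7 held in all 17 alternative settings.

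Within single libraries, pairs of enzymes that were called in opposite directions were set against each other. The pairs were chosen after their values were seen, so their differences restate those calls library by library and are a description. Msmo1 exceeded Fdft1 by 0.37, 0.26, 0.40, 0.38 and 0.30 log2 in DG libraries, and differed from it by -1.16, -1.08, -1.25 and -1.30 log2 in SVZ libraries. These are differences in log2 CPM without scaling for length, which would shift all 9 libraries alike, and the tissues lay far apart. Msmo1 minus Lss was 1.33 to 1.98 log2 in DG and 0.06 to 0.29 log2 in SVZ, and Dhcr7 minus Lss was 1.05 to 1.85 log2 in DG and 0.44 to 0.72 log2 in SVZ. A common scaling of a library cancels in these differences.

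Levels of different enzymes are compared per kilobase of annotated exon, as log2 CPM per kb. Hmgcs1 led in both tissues, at 6.64 ± 0.17 in DG and 6.69 ± 0.13 in SVZ. In DG it was followed by Sqle (5.45 ± 0.07), Fdft1 (5.39 ± 0.21), Cyp51 (5.35 ± 0.06), Msmo1 (5.19 ± 0.18) and Dhcr7 (5.08 ± 0.22), neighbours that lay within their spread of each other. Lss (2.79 ± 0.10) and Fdps (0.13 ± 0.27) came last in DG. Gm43738 shares 85.93% of the coding bases of Fdps, and how shared reads were counted is not given. The level of Fdps relative to the other enzymes is therefore uncertain in both tissues. In SVZ the order below Hmgcs1 was Fdft1 (5.99 ± 0.10), Cyp51 (5.39 ± 0.30), Sqle (5.23 ± 0.23), Dhcr7 (4.67 ± 0.04), Msmo1 (4.25 ± 0.12), Lss (3.23 ± 0.11) and Fdps (0.66 ± 0.25), and only Cyp51 and Sqle were neighbours within their spread. Msmo1 therefore stood with the middle group in DG and below it in SVZ. The length counts all annotated exon bases of a gene, 10787 for Lss and 4208 to 6144 for the other 7, so the size of the gap between Lss and the enzymes above it depends in part on it. In log2 CPM without scaling for length, Lss was likewise above Fdps and below the other 6 in both tissues. Primer-dT cDNA was copied over its full length, and any loss towards the start of long transcripts was not measured.

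Within a tissue, each library except SVZ 1 had 6 or 7 of the 8 enzymes on the same side of the tissue mean. No such count was made over all genes, so these counts describe the 8 and do not set them apart from other genes. In DG 3, 7 of the 8 were below their DG mean, by 0.18 log2 on average over the 8, and Lss alone was above (0.04). In DG 5, 6 of the 8 were above, from Dhcr7 at 0.31, and Lss was lowest at -0.13. In SVZ 2, 7 of the 8 were above their SVZ mean, by 0.16 log2 on average over the 8, with Sqle highest at 0.33. The largest single departure was Cyp51 in SVZ 4, at -0.44. DG 3 also had the highest sums of endothelial markers (2194 CPM) and of mature neuron markers (532 CPM, against 185 to 242 CPM in the other DG libraries and 140 to 177 CPM in SVZ), and the part of these cells was not tested.

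**Figure D2:**
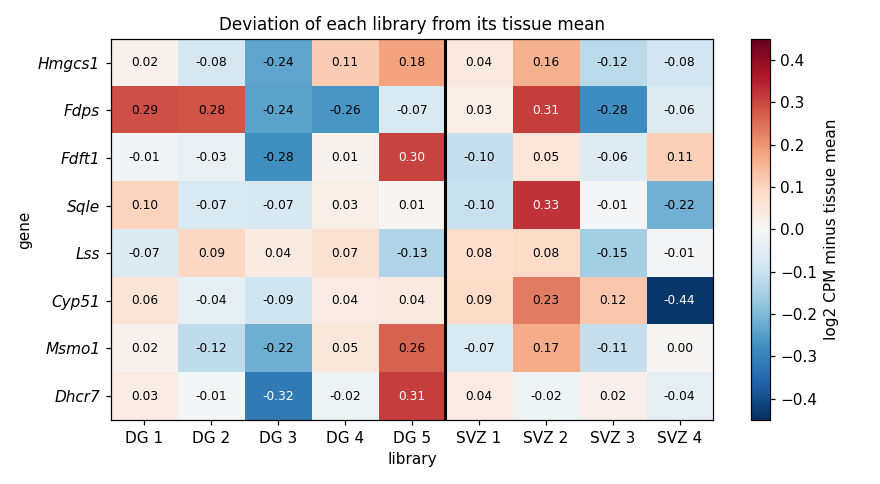
Deviation of each enzyme from its own tissue mean in log2 CPM, with enzymes as rows and the 5 DG and 4 SVZ libraries as columns, and the number printed in each cell. DG 3 is below the mean for 7 of 8 enzymes and SVZ 2 is above it for 7 of 8.

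Of the other 13 measured enzymes of the chain, 3 were higher in DG, 3 were lower and 7 did not pass, shares below the 32.9% and 33.7% of all genes, with a median difference of -0.03 against -0.07 for all genes. Tm7sf2, a sterol reductase of the same stage as Msmo1, averaged 3.79 ± 0.19 log2 CPM over DG libraries and 2.25 ± 0.32 over SVZ libraries, a difference of 1.54 (SE 0.19, limma adjusted p = 2.61e-05). Sc5d, the desaturase that acts just before Dhcr7, averaged 7.31 ± 0.16 over DG and 6.19 ± 0.14 over SVZ libraries, a difference of 1.12 (SE 0.11, adjusted p = 4.01e-06). These were 2.91-fold and 2.17-fold higher in DG. In the opposite direction, Lbr, a nuclear membrane protein that carries the same reductase activity as Tm7sf2, averaged 7.31 ± 0.08 over DG and 7.96 ± 0.13 over SVZ libraries, a difference of -0.65 (SE 0.08, adjusted p = 4.88e-05). The 2 genes for this reductase step therefore moved in opposite directions, and Lbr had the higher level per kilobase of exon in both tissues. Also called, and named after their values were seen, were Acat2, which starts the chain (-0.55, SE 0.11, adjusted p = 0.000883), and Mvd, the last enzyme of the mevalonate part (0.49, SE 0.15, adjusted p = 0.0130). Among those that did not pass were Idi1, which converts the isoprenoid unit (-0.30), Nsdhl (-0.03) and Hsd17b7 (-0.13), which act with Msmo1, and Ebp, a sterol isomerase (0.19). No test was made of whether early and late steps differ.

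**Figure D3:**
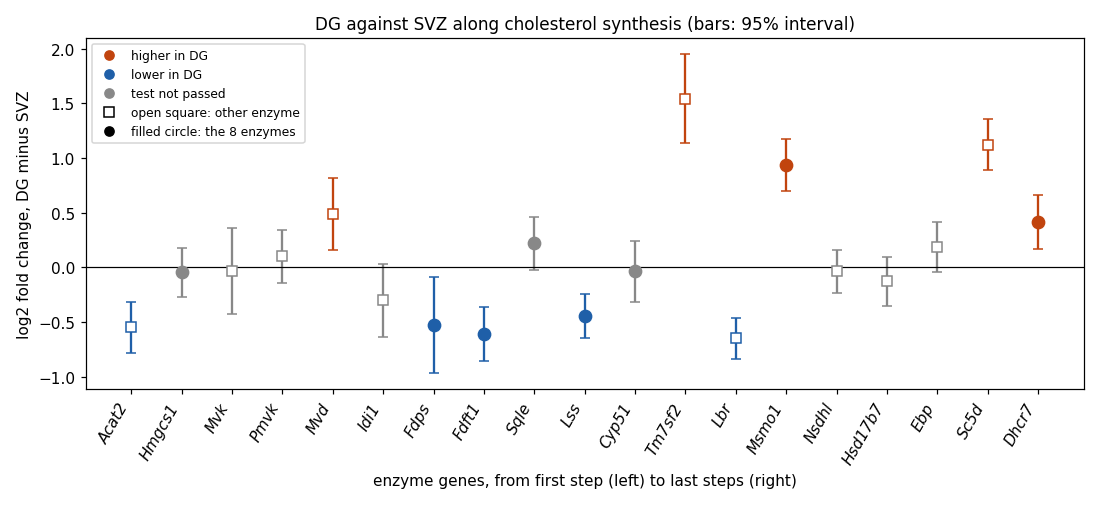
Difference of the 8 enzymes and of other enzymes of the chain, DG minus SVZ in log2 CPM with 95% intervals, ordered from the first step of the chain to the last. Filled circles are the 8 enzymes and open squares are other enzymes. Msmo1, Tm7sf2, Sc5d, Dhcr7 and Mvd are called higher in DG, and Acat2, Fdps, Fdft1, Lss and Lbr are called lower.

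Farnesyl diphosphate also feeds the isoprenoid branch, which makes ubiquinone, dolichol and the lipid anchors of proteins. Of its 11 measured genes 1 was higher in DG, 4 were lower and 6 did not pass (all genes: 32.9% higher and 33.7% lower), with a median of -0.09, which became 0.05 without SVZ 4. Pdss1 and Pdss2, which together build the ubiquinone tail, were lower in DG (-0.84, SE 0.23, limma adjusted p = 0.00743, and -0.77, SE 0.17, adjusted p = 0.00182), as was Fntb, a farnesyltransferase subunit (-0.36, SE 0.09, adjusted p = 0.00441). Icmt, which methylates farnesylated proteins, was higher in DG (0.72, SE 0.20, adjusted p = 0.00794).

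Among the 7 genes of the SREBP machinery, 2 were higher in DG, 1 was lower and 4 did not pass, against 32.9% higher and 33.7% lower among all genes, with a median of -0.12. Srebf2, whose product mainly drives cholesterol genes, stood at 6.27, 6.08, 5.88, 6.06 and 5.81 log2 CPM in DG, and at 6.42, 6.62, 6.47 and 6.06 in the SVZ libraries (difference -0.37, SE 0.13, limma adjusted p = 0.0268). The tissues overlapped through SVZ 4, and the call was lost without DG 3, DG 5, SVZ 1, SVZ 2 or SVZ 3 (adjusted p 0.0528 to 0.0851). Srebf1, whose product mainly drives fatty acid genes, stood at 6.44, 5.75, 5.59, 5.89 and 5.29 in DG, and at 4.88, 5.55, 5.19 and 3.87 in the SVZ libraries (difference 0.92, SE 0.32, adjusted p = 0.0233). It was spread widely, and its call was lost without DG 1 (adjusted p = 0.0545) or SVZ 4 (0.59, adjusted p = 0.0552). Insig2 was higher in DG, at 6.11 ± 0.22 against 5.29 ± 0.26 in the SVZ libraries (difference 0.82, SE 0.15, adjusted p = 0.000541). Insig1, itself a target of SREBP, did not pass (-0.20, adjusted p = 0.159) but did so without DG 3 (-0.27, adjusted p = 0.0373). The carrier Scap (0.26, adjusted p = 0.220) and the proteases Mbtps1 (-0.12, adjusted p = 0.226) and Mbtps2 (-0.12, adjusted p = 0.331) did not pass.

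The genes that take up, export and esterify cholesterol had larger median differences than those that make it. Of 11 measured uptake and transport genes, 7 were higher in DG, 2 were lower and 2 did not pass, against 32.9% higher and 33.7% lower among all genes (median 0.95 against -0.07). Mylip, a ubiquitin ligase that removes lipoprotein receptors, had 2.96 to 3.73 log2 CPM in DG and -0.91 to 2.25 in the SVZ libraries (difference 2.68, SE 0.51, limma adjusted p = 0.000754). Lipa, the lysosomal lipase that frees cholesterol from its esters, averaged 6.72 ± 0.26 over DG and 5.23 ± 0.08 over SVZ libraries (difference 1.49, SE 0.13, adjusted p = 2.60e-06). Lower in DG were Lrp8, a lipoprotein and reelin receptor of neurons and neuroblasts (-1.36, SE 0.20, adjusted p = 0.000102), and Stard4, a carrier of cholesterol between membranes (-0.49, SE 0.14, adjusted p = 0.0115).

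Among all genes 32.9% were higher and 33.7% lower in DG, with a median of -0.07. Of 12 measured genes of efflux, esterification and oxysterols, 9 were higher in DG and 3 did not pass (median 2.14). None was lower by limma, with 0 at an unadjusted p under 0.05 and 0 by limma-voom. Lcat, which esterifies cholesterol on lipoproteins, averaged 6.82 ± 0.30 log2 CPM over DG and 1.98 ± 0.18 over SVZ libraries (difference 4.84, SE 0.16, limma adjusted p = 7.94e-09), or 28.6-fold higher in DG. Cyp7b1, which breaks down oxysterols, had 5.94 to 6.07 in the DG libraries and 1.34 to 2.34 in the SVZ libraries (difference 4.13, SE 0.20, adjusted p = 3.80e-08). Soat1, which esterifies cholesterol inside cells, was higher in DG by 1.53 log2 (SE 0.10, limma adjusted p = 2.82e-07). The exporter Abcg4 was higher by 0.68 (SE 0.21, limma adjusted p = 0.0142), a call lost with replicate number as a term in the fit. Of 11 fatty acid synthesis genes, which share SREBP control, 7 were higher in DG, 3 were lower and 1 did not pass (median 0.57). The share lower is near the 33.7% of all genes, and 32.9% of all genes were higher. The desaturase Fads2 (1.65, SE 0.23, adjusted p = 7.13e-05) and the elongase Elovl5 (1.33, SE 0.10, adjusted p = 5.51e-07) were higher in DG, while Acaca (-0.61, SE 0.14, adjusted p = 0.00259) and Fasn (-0.42, SE 0.14, adjusted p = 0.0206), the enzymes that build the fatty acid chain, were lower. The Fasn call was lost without DG 4 (adjusted p = 0.0505) or SVZ 1 (adjusted p = 0.0691). Beside these lists stand the higher vessel and astrocyte marker sums of DG, such as 15626 to 23694 CPM against 1665 to 2964 CPM in SVZ for astrocytes and radial glia, and their part was not tested.

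**Figure D4:**
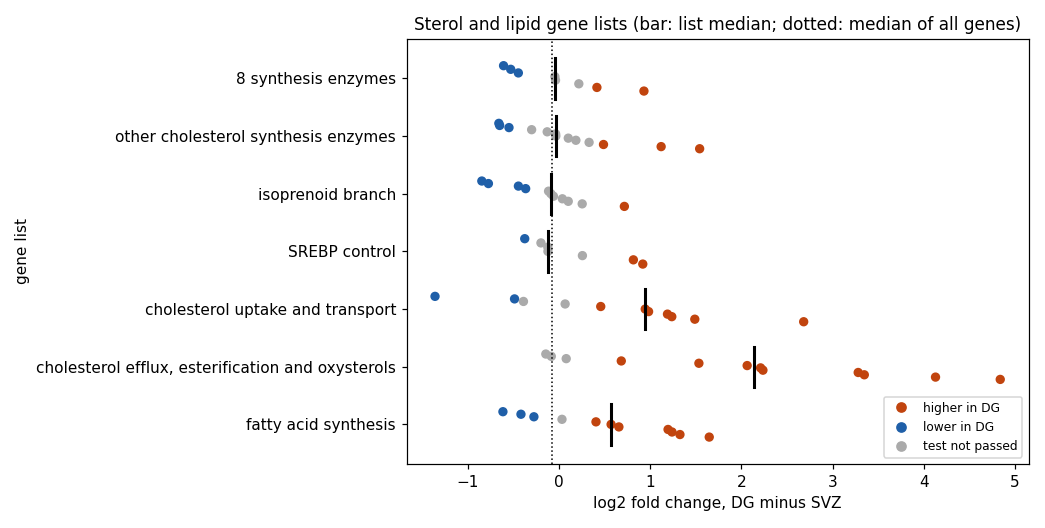
Difference of each measured gene, DG minus SVZ in log2 CPM, by list, with the median of each list and the median of all genes (-0.07). The 8 synthesis enzymes lie between -0.61 and 0.93, and genes of efflux, esterification and oxysterols reach 4.84.

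Since the 8 enzymes differed in both directions, their mean profile over the 9 libraries was nearly flat, from -0.18 log2 in DG 3 to 0.17 log2 in SVZ 2 about the mean of all libraries. Of 5622 other genes that averaged 5 log2 CPM or more, the 5 nearest to it by mean absolute distance over the 9 libraries were Mad1l1 (0.0388 log2), Bckdk (0.0473), Bloc1s6 (0.0478), Trappc13 (0.0503) and Chp1 (0.0521). Of the 8 enzymes themselves, Hmgcs1 was nearest to their mean (0.0560 log2) and Msmo1 was farthest (0.466 log2). All 8 lay farther from this mean than the 5 genes named, whose likeness is thus to the mean and not to single enzymes.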

How the data were processed

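Fluorescent cells were sorted from DG (5 libraries) and SVZ (4 libraries). Per the labels' protocols, cDNA was primed with poly-dT, amplified over its full length and sheared, with no strand marking or molecular identifiers, so reads are not independent molecules. The authors used STAR, edgeR and mm10, per the submitters' processing notes. The sources used here give no versions, gene counter or annotation release. The authors deposited log2 CPM with a prior count of 1 read, as inferred from the values: reads recovered by this formula were whole for 100% of values (tolerance 0.001). Folds on this scale understate changes of genes with few reads.

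Symbols, exon lengths and overlaps came from GENCODE M21, with 14433 of 14477 identifiers matched. In R 4.3.3, limma 3.58.1 with its trend option was fitted to all 14477 genes with tissue as the only term, and p-values were adjusted by the Benjamini-Hochberg method over all genes. Copies were searched with blastn at 90% identity over 300 bases. The fit was tested on simulated data. No replicate pair looked like a library deposited again: the chi-square of their reads was 19.6 to 173 times its degrees of freedom.

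The 8 enzymes and all lists were chosen with earlier results of these data known. The 8 and all SREBP machinery genes were named whatever their result, and up to 4 called genes per other list were named, the 2 highest and the 2 lowest. A gene that this rule takes is not reported here. The 17 alternatives covered scaling (TMM and median-of-ratios), the prior count (5 and 0.25 reads), a filter at a mean of 3 log2 CPM, limma-voom, robust moderation, a replicate block and each library left out. Their use on named genes other than the 8 was chosen after seeing the data.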

Additional observations from a re-analysis of the deposited data

Results flagged for a closer look

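Of 74 groups of library values examined, 3 held a library that stood apart from the rest of its tissue by the gap to its neighbour relative to the range, which chance gives in about 1 in 20 groups. None of the 3 was among the 8 synthesis enzymes. Pdss1, of ubiquinone synthesis, was at 1.799 log2 CPM in DG 5, against 2.63 to 2.91 in the other DG libraries. Pdss2, its partner, was at 3.61 log2 CPM in DG 2, against 3.20 to 3.29 in the other DG libraries. Insig2, which retains SREBP, was at 6.48 log2 CPM in DG 3, against 5.95 to 6.09 in the other DG libraries.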

How the results depend on the processing

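Fdft1 (-0.68 to -0.54), Lss (-0.50 to -0.39), Msmo1 (0.87 to 0.99) and Dhcr7 (0.34 to 0.50) kept direction and call in all 17 alternatives, with adjusted p of at most 0.0249 (limma). The sign of 2 uncalled enzymes turned: Hmgcs1 was 0.0101 with TMM scaling and -0.0898 to 0.0154 with 1 library left out (above 0 without DG 3 or SVZ 2), and Cyp51 was 0.0171 with TMM scaling and -0.184 to 0.0405 with 1 library left out (above 0 without SVZ 2 or SVZ 3). With 1 library left out, 2 to 3 of the 8 enzymes were higher and 2 to 3 lower in DG. Requiring a mean of 3 log2 CPM left 9762 genes, Fdps not among them. Of these, 2938 were higher and 3691 lower in DG, against 4769 and 4873 of all 14477 genes. The filter also moved the median difference from -0.07 to -0.13, so the balance shifted towards lower in DG. TMM scaling gave 5008 higher and 4476 lower, and moved the median of all genes to -0.02. In deviations from the tissue means, same-numbered libraries of the 2 tissues correlated at -0.173 to 0.00727 in 4 pairs. Of 4 SVZ libraries, 0 correlated best with their own number. The labels do not say whether a number stands for the same animals or sorting day, and these correlations cannot exclude it. DG 5 has no SVZ library of its number. The replicate block therefore gave the same differences as leaving DG 5 out, with a median of -0.0585 for all genes in both, and only its p-values differed. With the replicate block, 2 of the 8 enzymes were higher and 2 lower, with limma adjusted p of 0.0678 for Fdps, 0.0747 for Srebf2 and 0.0589 for Abcg4. All genes then gave 4513 higher and 4273 lower. Fdps had the fewest reads of the 8, at 1711 over all libraries, and how reads shared with Gm43738 were counted is not given.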
